A study of Mus musculus with 4 samples.

Results

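Described here are 8 genes of the thick ascending limb and the distal nephron, grouped under salt transport and measured in mouse kidney after cisplatin and after saline. They are Slc12a1, Umod, Kcnj1 and Bsnd of the thick limb, Slc12a3 of the distal convoluted tubule, and Scnn1a, Scnn1b and Scnn1g, the subunits of the epithelial sodium channel ENaC. They were taken by symbol from a table of 29190 genes; each of the 8 symbols matched a single row, and all 8 were among the 17419 genes with enough counts to be tested. The cisplatin group was kidney of male C57 mice, 8 weeks old, given cisplatin at 30 mg/kg, and the control group was kidney of the same kind of mouse given physiological saline, with 2 libraries in each group. The protocol describes 18 mice in 3 groups killed 24 h or 48 h after cisplatin; the sources used here do not state which time these libraries represent, or whether a library holds tissue of 1 mouse or several. No allele, transgene or further agent is named for either group, and no cells were sorted: the libraries are whole renal tissue. The design text calls the libraries of a group biological replicates. The gene tests set the difference between groups against the spread between such libraries.

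The thick ascending limb reabsorbs sodium, potassium and chloride through the apical cotransporter NKCC2, encoded by Slc12a1, while potassium returns to the lumen through the channel ROMK, encoded by Kcnj1. Chloride leaves on the blood side through channels that need the subunit barttin, encoded by Bsnd. Further along, the thiazide-sensitive cotransporter NCC (Slc12a3) and then ENaC take up the remaining sodium under the control of WNK kinases and aldosterone. Inherited loss of these transporters causes the salt-wasting disorders named after Bartter and Gitelman and pseudohypoaldosteronism.

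Cisplatin kidneys carried less transcript of 7 of the 8 genes and more of 1, the ENaC alpha subunit gene Scnn1a. The falls spanned a wide range: Bsnd stood at 22.6% of its saline level, Slc12a3 at 25.2%, Kcnj1 at 35.2%, Umod at 37.5%, Scnn1g at 41.9%, Slc12a1 at 54.6% and Scnn1b at 74.4%. Scnn1a stood at 126% of its saline level. These are fitted ratios on the TMM-scaled CPM scale, on which a count is divided by its library's total after trimmed-mean (TMM) scaling of that total. The members called lower, at a Benjamini-Hochberg adjusted p under 0.05 by edgeR's quasi-likelihood test, were 7 of 8, beside 36.4% of all tested genes; the members called higher were 1 of 8, beside 37.2%. In each of the 8 genes the libraries of the groups did not overlap, which also held for 86.3% of all tested genes. The median log2 fold change was -1.33 for the 8 members and 0.04 for all tested genes.

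**Figure D1:**
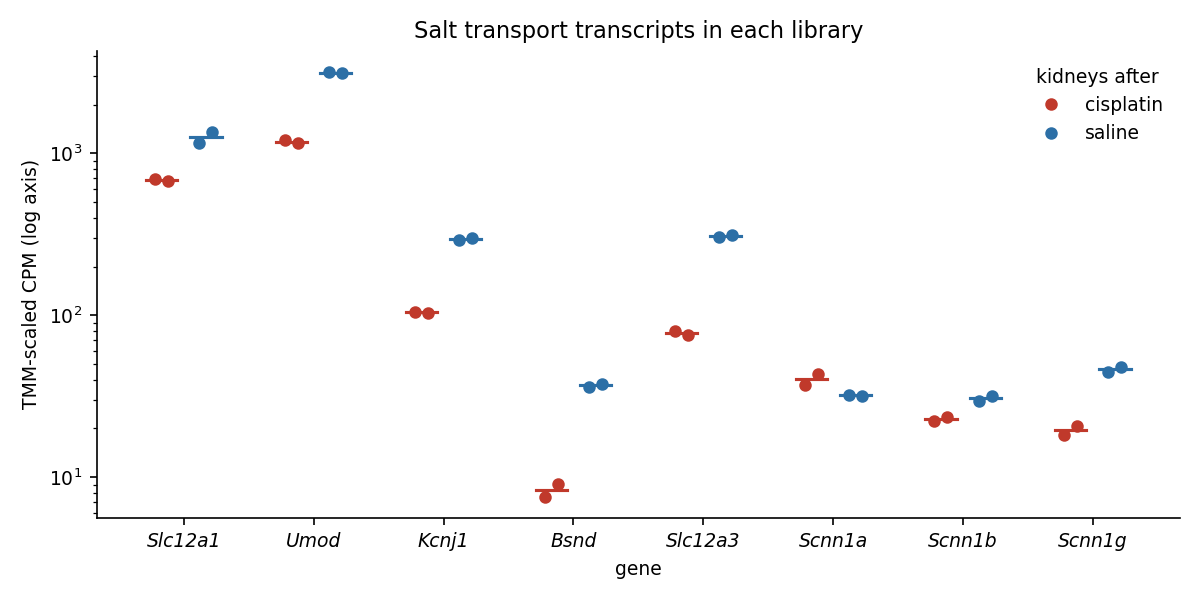
TMM-scaled CPM (log axis) of the 8 genes in each library, cisplatin in red at the left of each pair and saline in blue; points are libraries (2 per group) and lines their means. The cisplatin points lie below the saline points for every gene except Scnn1a, whose cisplatin libraries, at 37.2 and 43.1 CPM, lie above the saline libraries at 32.3 and 31.7 CPM.

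Library totals lay between 20662475 and 27122403 counts, so that a floor of 3 counts equals 0.111 to 0.145 CPM, and this floor covers counting error only. The 8 genes had between 180 and 76232 counts in a library and were all far above it. Libraries of a group correlated at r = 0.993 for cisplatin and 0.992 for saline across genes on log2 CPM, and libraries of different groups at 0.892 to 0.894; genes are not independent replicates. Many genes moved in these kidneys, with 6487 called higher and 6333 lower. That split depends on scaling: with library size alone it was 9110 higher and 4207 lower. With limma on the authors' FPKM, where the test, the measure and the genes fitted (28436) differ too, it was 7258 higher and 3804 lower (pseudocount 0.1) or 7319 higher and 3784 lower (pseudocount 1). The median over all tested genes moved from 0.04 with TMM to 0.41 with library size alone, and fold changes are best read against it. Relative to that median the members ranged from -2.19 for Bsnd to 0.29 for Scnn1a under TMM, upper-quartile scaling and library size alone. That likeness is built in, because a change of scaling moves all genes by nearly the same amount, so it is no separate support. With limma on log2(FPKM + 1), relative to the median of that fit, Slc12a3 was lowest at -1.70, Bsnd was at -1.54 and Scnn1a was at 0.46.

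Among the thick limb genes, Slc12a1 (ENSMUSG00000027202.10, chromosome 2, 125152505 to 125230002, plus strand, GRCm38) had the smallest fall. It measured 697 and 673 CPM in the cisplatin libraries, against 1156 and 1351 CPM in the saline libraries. The saline libraries differed from each other more than for any other thick limb gene, and the groups did not overlap. The log2 fold change of Slc12a1 was -0.87 (standard error, SE, 0.07; edgeR quasi-likelihood adjusted p = 3.20e-10). Leaving out a saline library gave -0.76 or -0.99. Of all tested genes 18.9% had a lower fold change than Slc12a1. The antisense gene Gm14002, which overlaps it on the other strand, had 3 to 7 counts per library.

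Umod (ENSMUSG00000030963.5, chromosome 7, 119462711 to 119479282, minus strand) encodes uromodulin, the most abundant protein of normal urine, which thick limb cells secrete. Its transcript was at 1204 and 1159 CPM after cisplatin, against 3178 and 3124 CPM after saline. Replicates lay close together in both groups, with means of 1182 ± 32.2 CPM after cisplatin and 3151 ± 38.3 CPM after saline (SD, n = 2 each). The log2 fold change was -1.41 (SE 0.05; edgeR adjusted p = 4.13e-15). An annotated antisense gene, Gm44588, overlaps Umod and had no row of its own among the genes used here.

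Kcnj1 (ENSMUSG00000041248.8, chromosome 9, 32372493 to 32399197, plus strand) followed Umod closely. The potassium channel transcript stood at 105 and 103 CPM after cisplatin, against 293 and 298 CPM after saline, a log2 fold change of -1.51 (SE 0.06; edgeR adjusted p = 1.11e-14). ROMK is also made in the distal convoluted tubule and collecting duct, so its whole-kidney level is not that of the thick limb alone.

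Bsnd (ENSMUSG00000025418.7, chromosome 4, 106483456 to 106492283, minus strand) had the lowest TMM fold change of the 8, though not under every setting: with log2(FPKM + 1) it was at -1.49 and Slc12a3 at -1.66, and without cisplatin replicate 1 both were at -2.03. It measured 7.59 and 9.06 CPM in cisplatin kidneys, against 36.3 and 37.7 CPM in saline kidneys. These values rest on 180 and 235 counts after cisplatin, the fewest of any member in that group, and on 670 and 920 counts after saline. The log2 fold change was -2.15 (SE 0.11; edgeR adjusted p = 3.91e-13), and 4.12% of all tested genes had a lower one. Barttin also serves the chloride channels of intercalated cells and of the distal convoluted tubule.

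Slc12a3 (ENSMUSG00000031766.3, chromosome 8, 94329201 to 94366214, plus strand) is expressed in the distal convoluted tubule. It stood at 80.2 and 75.3 CPM after cisplatin and at 304 and 313 CPM after saline, with replicates close together and the groups far apart. The log2 fold change was -1.99 (SE 0.06; edgeR adjusted p = 3.06e-16), with 5.06% of all tested genes lower. In whole tissue, fewer cells of a segment and less RNA per cell cannot be told apart, for Slc12a3 as for each other gene described here.

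Promoters of Slc12a1, Slc12a3 and Umod are shown because these are the cotransporter genes of neighbouring segments, with unequal falls, and the most abundant transcript of the group. Each runs from 250 bases before to 50 bases from the transcription start on, 5′ to 3′ on the gene's strand, from RefSeq on GRCm38.p6, where 6 of the 8 members matched; no entry matched for Bsnd and Scnn1a. Slc12a1 lies at chr2:125152350-125152649 (plus strand), Slc12a3 at chr8:94328958-94329257 (plus strand) and Umod at chr7:119479213-119479512 (minus strand).
Slc12a1: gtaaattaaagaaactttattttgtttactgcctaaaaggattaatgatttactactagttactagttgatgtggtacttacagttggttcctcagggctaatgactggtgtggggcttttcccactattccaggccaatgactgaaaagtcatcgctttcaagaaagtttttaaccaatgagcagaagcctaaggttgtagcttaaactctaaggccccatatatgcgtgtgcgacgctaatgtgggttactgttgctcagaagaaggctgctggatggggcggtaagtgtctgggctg
Slc12a3: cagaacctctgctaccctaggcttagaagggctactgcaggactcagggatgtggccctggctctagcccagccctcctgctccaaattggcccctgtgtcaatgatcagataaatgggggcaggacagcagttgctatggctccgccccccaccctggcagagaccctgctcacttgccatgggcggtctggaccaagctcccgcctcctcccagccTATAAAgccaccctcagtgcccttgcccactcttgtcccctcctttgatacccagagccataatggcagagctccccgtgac
Umod: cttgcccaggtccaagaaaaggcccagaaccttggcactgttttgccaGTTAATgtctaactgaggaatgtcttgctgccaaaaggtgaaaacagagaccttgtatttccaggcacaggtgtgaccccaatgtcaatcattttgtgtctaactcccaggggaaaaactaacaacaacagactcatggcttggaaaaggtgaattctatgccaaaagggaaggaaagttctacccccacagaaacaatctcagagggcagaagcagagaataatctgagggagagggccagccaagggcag
Capitals mark matches to a motif, searched on both strands. The half-site of the HNF1 factors was searched as GTTAAT. The half-site of the steroid receptors was searched with the letters TGTTCT. For the AP-1 factors the letters were TGANTCA, with N for any base. The TATA box was searched as TATAAA, and no motif overlaps another one in these promoters. Umod holds the HNF1 half-site from base -202 and Slc12a3 holds the TATA box from base -32, counted from the start. Kcnj1, not printed, holds the steroid receptor half-site on the opposite strand from bases -190 and -14. Its promoter, at chr9:32393735-32394034 (plus strand), lies inside the gene span given above and not at that span's 5′ end. The other 3 promoters searched, those of Slc12a1, Scnn1b and Scnn1g, hold none of the 4. Of 32851 promoters of the same length, 7.1% hold the HNF1 half-site, 19.0% the steroid receptor half-site, 7.81% the AP-1 site and 13.6% the TATA box. A match is a description of letters only.

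The ENaC subunit genes did not move together. The channel is built from alpha, beta and gamma subunits, and all of them are needed for full sodium current. Scnn1g (ENSMUSG00000000216.8, chromosome 7, 121734479 to 121768475, plus strand), the gamma subunit, measured 18.3 and 20.7 CPM after cisplatin and 44.9 and 48.1 CPM after saline. Its log2 fold change was -1.26 (SE 0.09; edgeR adjusted p = 9.58e-11).

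Scnn1b (ENSMUSG00000030873.8, chromosome 7, 121865038 to 121918514, plus strand), the beta subunit, begins 96.6 kb downstream of the end of Scnn1g on the same strand. It stood at 22.2 and 23.4 CPM after cisplatin, against 29.7 and 31.7 CPM after saline, so that the groups lay apart by little. The log2 fold change was -0.43 (SE 0.09; edgeR adjusted p = 0.000257). This call was lost with library size alone, at -0.06 (edgeR adjusted p = 0.58), and with FPKM, at -0.15 (limma adjusted p = 0.339). The protein-coding gene Cog7 overlaps Scnn1b on the opposite strand, with 575 to 1152 counts per library, and the sources used here do not state whether the counting used strand.

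Scnn1a (ENSMUSG00000030340.14, chromosome 6, 125320659 to 125344943, plus strand), the alpha subunit, was the member that rose. It had 37.2 and 43.1 CPM in cisplatin kidneys and 32.3 and 31.7 CPM in saline kidneys, a log2 fold change of 0.33 (SE 0.08; edgeR adjusted p = 0.00161). The lower cisplatin library lay close to the saline libraries: without cisplatin replicate 2 the log2 fold change was 0.22 (edgeR adjusted p = 0.0759). The value was positive under each scaling, up to 0.69 with library size alone. No annotated gene overlaps Scnn1a or Scnn1g.

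**Figure D2:**
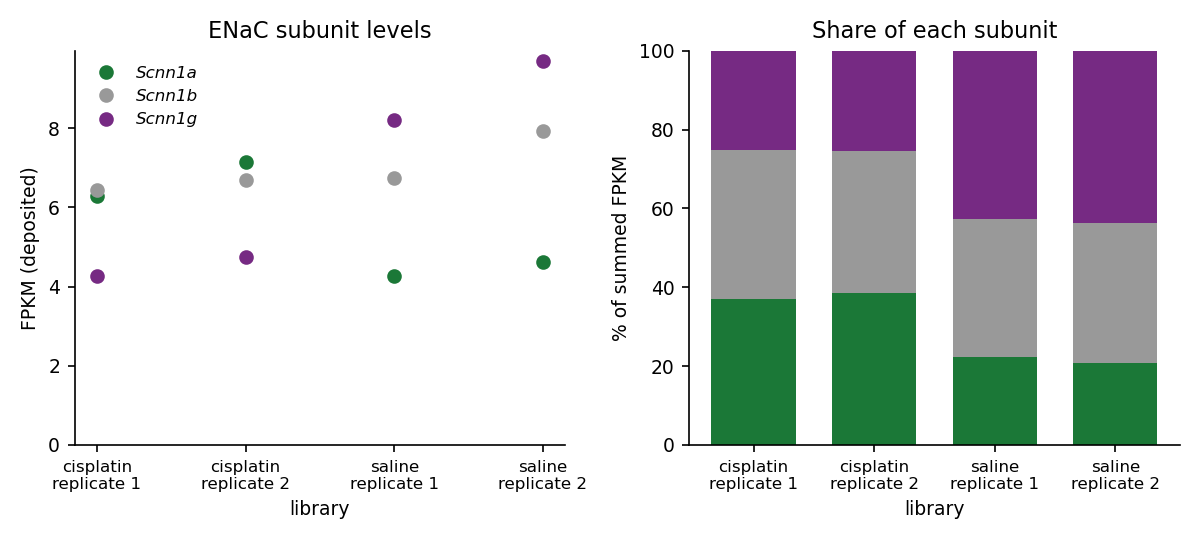
Deposited FPKM of the ENaC subunit genes in each library (left, points) and the share of each subunit in their summed FPKM (right, stacked bars), cisplatin libraries left of saline libraries. Scnn1a holds 37.0 and 38.5% of the sum after cisplatin and 22.2 and 20.8% after saline, and Scnn1g 25.1 and 25.5% in the cisplatin libraries, against 42.7 and 43.6% in the saline libraries.

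On the per-length scale of the authors' FPKM, the order of the subunit levels differed between the groups. In cisplatin kidneys Scnn1a (6.29 and 7.16 FPKM) and Scnn1b (6.45 and 6.69 FPKM) overlapped, and Scnn1g was lower (4.27 and 4.75 FPKM). In saline kidneys Scnn1g was at 8.22 and 9.69 FPKM, Scnn1b at 6.74 and 7.93 FPKM, and Scnn1a was lowest at 4.28 and 4.63 FPKM. The share of Scnn1b in the summed FPKM was 37.9 and 36.0% after cisplatin and 35.0 and 35.6% after saline. These shares, chosen after the values were seen, do not depend on how libraries are scaled to each other.

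Within a library, the ratio of a pair of genes likewise does not depend on scaling, and 7 pairs were compared. For every 100 counts of Scnn1a there were 49.1 and 48.1 counts of Scnn1g in the cisplatin libraries, against 139 and 152 in the saline libraries. That is a difference of -1.58 in the log2 ratio. For every 100 counts of Slc12a1 there were 11.5 and 11.2 counts of Slc12a3 after cisplatin and 26.3 and 23.1 after saline, a difference of -1.12. The thick limb genes Bsnd, Kcnj1 and Umod had differences of -1.29, -0.64 and -0.55 in their log2 ratio to Slc12a1. The log2 ratio of Scnn1b to Scnn1a differed by -0.75, and that of Scnn1g to Scnn1b by -0.83. In none of the 7 pairs did the cisplatin and saline libraries overlap. The exact 2-sided permutation test gave p = 0.333 for each pair, and 0.333 after adjustment over the 7, which is the smallest p that 2 against 2 libraries allow, so these differences are a description.

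Over all 8 members the FPKM order was led by Umod in both groups, with a mean of 331 ± 13.2 FPKM after cisplatin and 733 ± 40.9 FPKM after saline (SD, n = 2 each). Slc12a1 was second, at 96.3 ± 3.58 FPKM after cisplatin and 147 ± 25.9 FPKM after saline. Kcnj1 (22.1 ± 0.686 FPKM) then stood above Slc12a3 (16.3 ± 0.94 FPKM) in cisplatin kidneys, without overlap. In saline kidneys Slc12a3 (53.6 ± 4.74 FPKM) and Kcnj1 (52.1 ± 4.14 FPKM) overlapped. Bsnd was the lowest of the 8 after cisplatin, at 2.09 ± 0.233 FPKM. After saline, at 7.72 ± 0.735 FPKM, it overlapped both Scnn1g and Scnn1b.

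**Figure D3:**
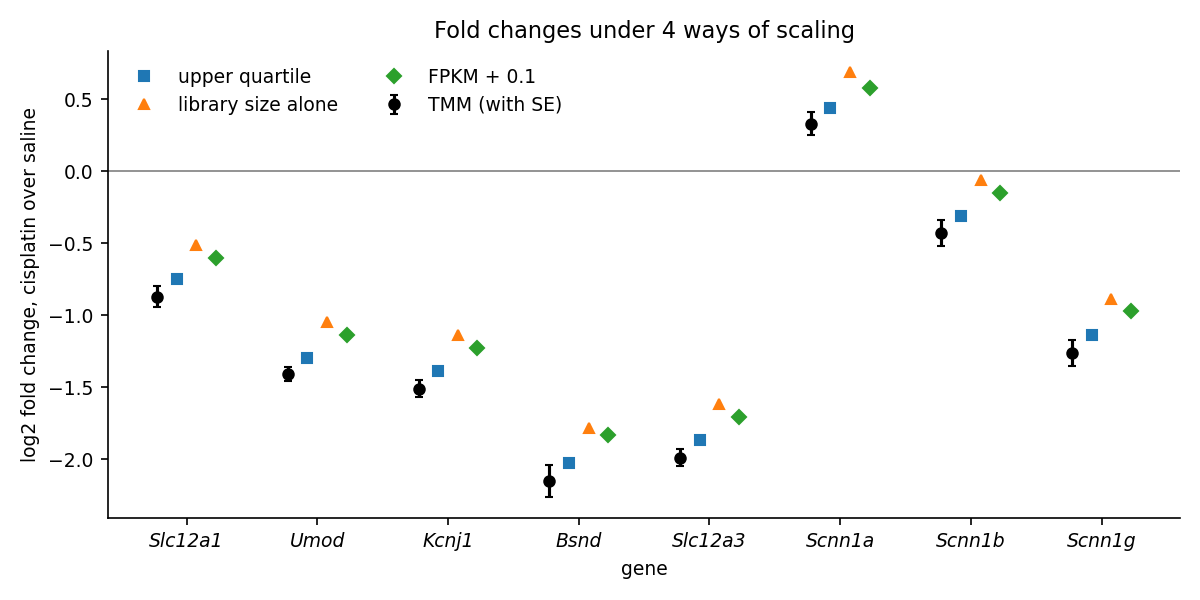
Log2 fold change (cisplatin over saline) of each gene with TMM (black, bars are SE) and with upper-quartile scaling, library size alone and limma on log2(FPKM + 0.1). The other 3 settings lie above TMM for all 8 genes, with the genes in the same order, and bring Scnn1b to -0.06 with library size alone.

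Most of the genes that work beside the thick limb members fell. Of 13 listed partners 12 were tested; 10 fell and 2 rose, beside 36.4% of all tested genes called lower and 37.2% called higher, and their median log2 fold change was -1.34. Kcnj16 and Kcnj10 encode the basolateral potassium channel of the thick limb and distal convoluted tubule. Kcnj16 was at 194 ± 6.65 CPM in cisplatin kidneys and 1175 ± 2.77 CPM in saline kidneys, a log2 fold change of -2.60 (SE 0.06; edgeR adjusted p = 2.84e-18), and Kcnj10 fell by 1.05 on the same scale. Casr, the calcium-sensing receptor, stood at 12.2 ± 0.513 CPM after cisplatin and 54.3 ± 0.0251 CPM after saline (log2 fold change -2.16). The sodium pump genes Atp1b1 and Fxyd2, which other tubule segments also express, had log2 fold changes of -1.33 and -1.48. All partner values are whole-kidney levels, and the segments behind them were not told apart.

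The paracellular partners, likewise measured in whole kidney, differed among themselves. Cldn10, counted as a whole gene, had a log2 fold change of -1.36, and its isoforms were not told apart. Cldn16, which forms the calcium and magnesium path together with Cldn19, had a log2 fold change of -0.80. Cldn19 rose, with 33.7 ± 1.03 CPM in cisplatin kidneys and 17 ± 0.211 CPM in saline kidneys (log2 fold change 0.99, SE 0.09; edgeR adjusted p = 6.64e-09). Ptger3, a prostaglandin E receptor, fell by 0.58, a call that was lost with library size alone (-0.21) and with FPKM (-0.29). Cldn14 had at most 3 counts in a library and was not tested.

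The WNK pathway sets the phosphorylation of NKCC2 and NCC: WNK kinases activate SPAK (Stk39) and OSR1 (Oxsr1), and the KLHL3-CUL3 ubiquitin ligase degrades WNKs. Of its 11 listed genes 9 fell, beside 36.4% of all tested genes, and the median log2 fold change was -0.65. At least 2-fold falls were called for 3 of the 11, beside 2798 of the 17419 tested genes. Among these 3, Wnk2 had only 10 to 39 counts per library, and its call was lost with FPKM. By edgeR 0 of the 11 rose, beside 37.2% of all tested genes. This also held at an unadjusted p under 0.05, and DESeq2 likewise called 0 higher. Klhl3 had the lowest fold change, with 6.46 ± 0.247 CPM in cisplatin kidneys, against 36.4 ± 1.94 CPM in saline kidneys (log2 fold change -2.49, SE 0.11; edgeR adjusted p = 3.76e-14). Wnk1 fell by 1.10 on the log2 scale, the scaffold gene Cab39l by 0.90 and Cul3 by 0.65. Wnk4, the kinase best known from the distal convoluted tubule, had a log2 fold change of -0.51. Its call was lost with library size alone (-0.14) and with FPKM (-0.23 at a pseudocount of 0.1, -0.19 at 1). Wnk3, also called lower (-0.89), had only 14 to 40 counts per library. Its call was lost with DESeq2, upper-quartile scaling, library size alone and FPKM. Stk39 had -0.16 and did not pass (edgeR adjusted p = 0.0639). The smaller of these values turn on the scaling. With relative log expression size factors Stk39 passed as lower, at -0.18 (edgeR adjusted p = 0.0455). With library size alone 5 of the 11 fell and 2, Stk39 and Klhl2, rose.

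Of 14 listed regulators of ENaC 7 fell and 5 rose, and the other 2 missed the threshold; the median log2 fold change was -0.46. Over all tested genes 36.4% were called lower and 37.2% higher, and the share of the list that rose is near that background. The hormone arm split: the mineralocorticoid receptor gene Nr3c2 was at 16.3 ± 1.69 CPM after cisplatin and 43.1 ± 0.716 CPM after saline (log2 fold change -1.40), and the glucocorticoid receptor gene Nr3c1 had -0.72. Hsd11b2, which shields the mineralocorticoid receptor from glucocorticoids, had a log2 fold change of -1.24. Sgk1 and Tsc22d3, which the mineralocorticoid and glucocorticoid receptors both induce, rose. The kinase gene Sgk1, which raises ENaC at the cell surface, was at 198 ± 0.943 CPM after cisplatin and 78.3 ± 4.78 CPM after saline (log2 fold change 1.33, SE 0.06; edgeR adjusted p = 1.24e-13). Tsc22d3, which encodes the leucine zipper protein GILZ, had a log2 fold change of 1.26. Values of the ENaC regulators, here and in the next paragraph, are whole-kidney levels, and the cells behind them were not told apart.

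The proteases that cleave ENaC moved oppositely. Prss8 encodes prostasin and was at 50.1 ± 0.049 CPM in cisplatin kidneys, against 292 ± 1.16 CPM in saline kidneys (log2 fold change -2.54, SE 0.06; edgeR adjusted p = 6.59e-18). St14 encodes matriptase, which acts with prostasin, and was at 104 ± 8.31 CPM after cisplatin and 19.6 ± 2.37 CPM after saline (log2 fold change 2.40, SE 0.08; edgeR adjusted p = 9.60e-16). The protease inhibitor gene Spint1 rose by 1.13 on the log2 scale. Furin (log2 fold change 0.16, edgeR adjusted p = 0.162) and Spint2 (-0.20, edgeR adjusted p = 0.145) did not pass, and in both the libraries of the groups overlapped. Their calls turn on the setting: Furin passed with upper-quartile scaling (0.27) and library size alone (0.52), and both passed with no filter, with the replicate block and with certain libraries left out. Nedd4l, the ubiquitin ligase that removes ENaC from the membrane, had a log2 fold change of -0.84, and the deubiquitinase gene Usp2 of -1.98. Dot1l and Mllt3, whose products together repress Scnn1a transcription in mouse collecting duct cells, had log2 fold changes of 1.88 and -0.92.

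**Figure D4:**
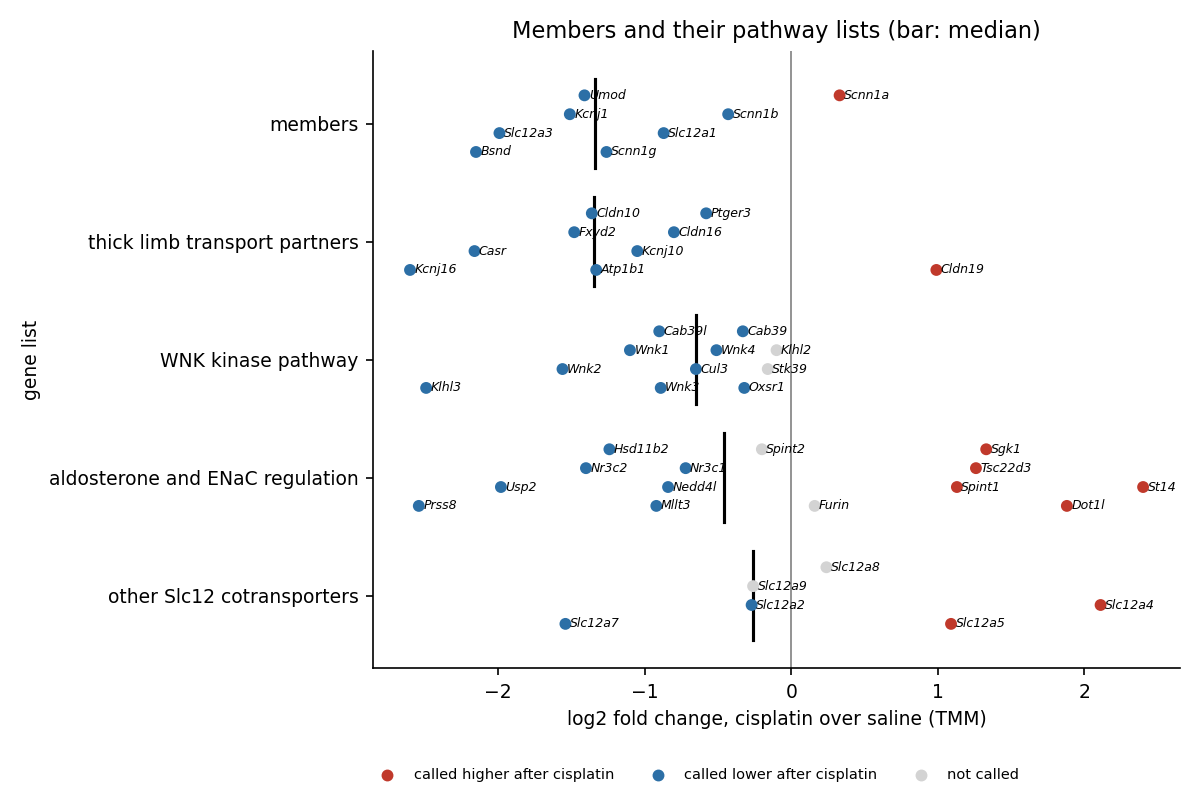
Log2 fold change (cisplatin over saline, TMM) of the 8 members and of tested genes of 4 lists; each point is a gene, with 4 listed genes not drawn, blue where called lower, red where called higher and grey where not called, and bars are medians over all tested genes of a list. The members (median -1.33) and thick limb partners (median -1.34) lie mostly left of 0, whereas the aldosterone and ENaC list (median -0.46) spreads to both sides.

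The other genes of the Slc12 cotransporter family, most of them potassium-chloride exporters of the cell membrane, had 3 of 7 genes lower and 2 higher, shares near the 36.4% and 37.2% of all tested genes. Slc12a4 (KCC1) was at 76.1 ± 0.315 CPM after cisplatin and 17.5 ± 1.46 CPM after saline, a log2 fold change of 2.11 (SE 0.08; edgeR adjusted p = 3.06e-15). Slc12a7 (KCC4) had 46 ± 0.818 CPM after cisplatin and 134 ± 4.71 CPM after saline (log2 fold change -1.54). Slc12a2, the widely expressed NKCC1 and closest relative of Slc12a1, had 97.3 ± 0.369 CPM after cisplatin and 117 ± 2.82 CPM after saline (log2 fold change -0.27), a fall that became 0.10 with library size alone and 0.00 with FPKM.

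Markers of other cells moved with these results, and their part in them was not tested. The counts of markers called stand beside 36.4% of all tested genes called lower and 37.2% called higher. Proximal tubule markers summed to 2182 to 2207 CPM in cisplatin kidneys and 14225 to 14440 CPM in saline kidneys, with 6 of 6 lower. Other markers of the distal convoluted and connecting tubule summed to 834 to 853 CPM after cisplatin and 5131 to 5177 CPM after saline, with 8 of 9 lower and the calcium channel gene Trpv5 not called. Most of that sum was Egf (276 CPM after cisplatin, 2331 CPM after saline) and Klk1 (278 CPM after cisplatin, 1631 CPM after saline). Intercalated cell markers summed to 47.7 to 50.0 CPM after cisplatin and 167 to 168 CPM after saline (3 of 5 lower, 1 higher). Among them Aqp6 rose (log2 fold change 0.68), and Foxi1 was not called (-0.06). Principal cell markers, which mark the cells that carry ENaC together with the connecting tubule, differed little in sum, at 173 to 177 CPM after cisplatin and 184 to 189 CPM after saline (1 of 5 lower, 3 higher). That sum hides opposite changes. Aqp3 fell, with 25.6 CPM after cisplatin and 79.9 CPM after saline, whereas Aqp2 rose, with 79 CPM after cisplatin and 49.4 CPM after saline. Fxyd4 and Avpr2 rose too (log2 fold changes 0.93 and 0.39), and Aqp4 was not called (0.00). Podocyte markers (552 to 583 CPM after cisplatin, 362 to 367 CPM after saline; 5 of 5 higher), endothelial markers (721 to 722 CPM after cisplatin, 571 to 575 CPM after saline; 4 of 6 higher, 1 lower) and macrophage markers (161 to 181 CPM after cisplatin, 65.2 to 72.2 CPM after saline; 5 of 6 higher, 1 lower) summed higher in cisplatin kidneys. Much of the macrophage sum was Cd68, at 69.7 CPM after cisplatin and 1.62 CPM after saline, while Adgre1 had 9.3 CPM after cisplatin and 6.25 CPM after saline, and Csf1r fell, with 31.2 CPM after cisplatin and 37.9 CPM after saline. Neutrophil markers summed to 27.5 to 30.1 CPM after cisplatin and 2.83 to 4.06 CPM after saline, with 4 of 4 tested higher and Ly6g at 0 in both saline libraries. Urothelial markers summed to 13.4 to 14.4 CPM after cisplatin and 2.99 to 3.03 CPM after saline (2 of 5 higher, 1 lower), with a median log2 fold change of -0.81. That sum was mostly Krt5 (9.32 CPM after cisplatin, 0.0746 CPM after saline) and Upk3b (3.35 CPM after cisplatin, 0.632 CPM after saline). The log2 fold changes of Upk1a, Upk1b and Upk3a were -1.14, -0.85 and -0.81, the last 2 not passing, and Upk2 was at 0 in both cisplatin libraries.

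Genes most like a member were sought among 11541 genes whose mean was 5 CPM or more, by the distance between their centred log2 CPM over the 4 libraries. Nearest to Slc12a1 were Galnt7, Fam35a and Rcbtb2 (distances of 0.0157 to 0.0366). Nearest to Slc12a3 were Ncoa7, Hmgcs1 and Osbpl8 (0.0228 to 0.0317), and nearest to Scnn1a were Mta1, Golt1a and Plekhh2 (0.028 to 0.0339). With 4 libraries in 2 groups this likeness is mostly that of the fold change.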

How the data were processed

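Raw read counts per gene and FPKM values (scaled for exon length and library depth) were deposited by the authors for 29190 and 29157 genes, with 1 column per library. Ribosomal RNA was depleted, and directional libraries were read as pairs of 150 nt, per the labels' protocols. The tools TopHat2, bcl2fastq and edgeR and the build GRCm38 are listed, with no versions, per the submitters' processing notes. Which program counted reads, whether it used strand and with which annotation is not stated in the sources used here.

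The test was run in edgeR 4.0.16 under R 4.3.3 (filterByExpr, TMM, quasi-likelihood F test across all genes, 2 residual degrees of freedom). Benjamini-Hochberg adjustment ran over all tested genes, with calls under 0.05. SEs come from the fold change and its F statistic. Cisplatin libraries had TMM factors of 1.15 and 1.12, saline libraries of 0.86 and 0.90. Replicates were compared first: chi-square per degree of freedom over genes was 11.5 between the cisplatin and 36.6 between the saline libraries, more than sampling noise gives. Ratios used counts plus 0.5. Alternatives were other scalings, filters, DESeq2 1.42.0, limma 3.58.1 on log2 of FPKM plus 0.1 or 1, the replicate number as a block, and each library left out. The fits were also run on simulated counts in which 17219 of 17419 genes were unchanged. There edgeR called 31 of 50 genes changed 1.5-fold in the right direction, and 12 of the unchanged genes. Far more genes were called in these data, so that run does not test the scaling used here. Named genes were the members, the genes of 4 pathway lists (always the 4 with the smallest p), 9 marker lists by their sums, and the 3 nearest genes of 3 members. As an exception, 4 genes of these lists are not reported here, although they stay in the counts and medians. Members and lists were chosen with earlier results of these data known. Coordinates are from GENCODE M21 on GRCm38, matched by identifier without its version. Python 3.11.15, scipy 1.17.1 and matplotlib 3.10.9 were used.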

Additional observations from a re-analysis of the deposited data

How the results depend on the processing

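Across 13 alternatives the 8 members kept their direction, and 100 of the 104 refitted values kept their side of the threshold. The exceptions were Scnn1b with library size alone (-0.06) and with FPKM (-0.15 at a pseudocount of 0.1, -0.14 at 1), and Scnn1a without cisplatin replicate 2 (0.22; unadjusted p = 0.0511). The number of members called lower was 6 or 7 throughout, and of members called higher 0 to 1 with a library left out. In the WNK list the number lower was 5 with library size alone, 3 with FPKM plus 0.1 and 4 with FPKM plus 1, against 9, and 2 were higher with library size alone; DESeq2 called 1 of the other Slc12 genes higher, against 2. Signs turned for genes near 0: with library size alone Stk39 (0.21), Oxsr1 (0.05), Cab39 (0.03), Klhl2 (0.27), Spint2 (0.17), Slc12a2 (0.10) and Slc12a9 (0.10); with FPKM plus 0.1 and plus 1 Stk39 (0.11, 0.10), Klhl2 (0.17, 0.15), Spint2 (0.07, 0.07) and Slc12a2 (0.00, 0.00); with upper-quartile scaling Klhl2 (0.02); and, with each library left out in turn, Furin (-0.04 to 0.35), Spint2 (-0.43 to 0.04) and Slc12a8 (-0.17 to 0.58). In the pathway lists 21 refitted values lost their call with the sign kept, among them Wnk4 with library size alone and with FPKM. Calls were gained for Furin with upper-quartile scaling (0.27) and library size alone (0.52). Furin and Spint2 also gained calls with no filter (0.14, -0.21), with the replicate block (0.16, -0.19) and with 2 of the 4 libraries left out in turn. Stk39 was called lower with relative log expression size factors (-0.18, edgeR adjusted p = 0.0455), and lay between -0.24 and -0.09 with each library left out. With library size alone the median of all genes moved up likewise, to 0.41; the cause of the other changes was not tested. Replicate numbers do not pair the libraries by any label, and same-numbered libraries deviated with a correlation of -0.0213 over genes; with the replicate block 12653 genes were called, against 12820, and 7 members lower and 1 higher. Each of the 7 ratios between members kept its sign under every alternative run on it. With 2 libraries per group, the exact permutation test of a single ratio cannot pass 0.05.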
